A study of Mus musculus with 2 samples.

Results

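The genes described here are protein-coding genes with a closed promoter in neural tube: no DNase-seq peak and no hotspot of either library lay within 1 kb of any of their transcription start sites (TSSs). Genes of GENCODE vM21 on chromosomes 1 to 19 of the mm10 mouse genome were tested, and symbols starting with Olfr, Vmn, Krt, Defb or Cyp were left out. Of 19009 genes tested, 4065 were closed in both libraries, which is 21.4%. Replicate 1 alone had no region at 4272 genes (22.5%) and replicate 2 alone at 4467 genes (23.5%). The members were chosen by these peaks and hotspots, so their closed state is a selection and not a result. The other 14944 genes tested had a peak or a hotspot of at least 1 library within that distance, and they are called the other genes below.

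The tissue was the neural tube, the embryonic precursor of brain and spinal cord, of B6NCrl mouse embryos at 11.5 days of development, taken from male and female embryos together. The labels give 1 group with 2 biological replicates, which are separate tissue samples carrying the same donor label, with no mutant, treatment or second group. Both libraries were run on several sequencer models, with an additional model named for replicate 2. With 1 group of 2 libraries no test across samples exists, and genes are not replicates, so the values below are descriptions with both libraries given where they differ. All 17 neural tube markers examined, among them Sox2, Pax6 and Olig2, had an open promoter. Of markers of other cell types, 4 of 7 erythroid, 1 of 4 endothelial, 2 of 5 muscle, 3 of 4 myeloid and 2 of 4 liver genes were closed. In whole tissue, a promoter that is open in a small share of the cells cannot be told apart from one that is open in none.

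DNase I cuts DNA where nucleosomes have been displaced, and a hotspot or a peak is a stretch where cuts accumulate. Mammalian promoters fall broadly into CpG-rich ones, which lie in CpG islands and are usually open in many tissues whether or not the gene is strongly expressed, and CpG-poor ones, which tend to open in the few cell types that express the gene. Many genes of terminal organs, of secretions and of immune cells have CpG-poor promoters, and the genes of each family often sit next to each other as products of gene duplication. Enhancers, in contrast, are distal open regions that can act on promoters far away, which are not always the nearest ones.

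Promoter sequences of 6 closed genes show the range found. They are reference sequences of the GRCm38.p6 genome, read on the strand of the gene from 250 bases before to 50 bases after the TSS. The first 4 have every CpG in capitals. Spata22, Ddx4 and Sycp1 are germ cell genes whose promoters were CpG-rich, with 25, 38 and 21 CpGs in 300 bases. Cryba4, a lens crystallin, had 1 CpG, which is closer to the typical closed promoter. The last 2 have the letters TATAAA in capitals, the core of the TATA box, starting 35 bases before the TSS of Npvf and 25 bases before the TSS of Crybb1. Npvf encodes the precursor of RFamide-related neuropeptides, and Crybb1 another lens crystallin.
Spata22 promoter, chr11:73329491-73329790, plus strand: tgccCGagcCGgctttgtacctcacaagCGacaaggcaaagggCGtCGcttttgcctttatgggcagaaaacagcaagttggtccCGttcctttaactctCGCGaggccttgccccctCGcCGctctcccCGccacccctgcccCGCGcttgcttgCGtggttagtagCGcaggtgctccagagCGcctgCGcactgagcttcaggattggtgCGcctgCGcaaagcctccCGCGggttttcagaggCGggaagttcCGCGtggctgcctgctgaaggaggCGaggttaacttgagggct
Ddx4 promoter, chr13:112652252-112652551, minus strand: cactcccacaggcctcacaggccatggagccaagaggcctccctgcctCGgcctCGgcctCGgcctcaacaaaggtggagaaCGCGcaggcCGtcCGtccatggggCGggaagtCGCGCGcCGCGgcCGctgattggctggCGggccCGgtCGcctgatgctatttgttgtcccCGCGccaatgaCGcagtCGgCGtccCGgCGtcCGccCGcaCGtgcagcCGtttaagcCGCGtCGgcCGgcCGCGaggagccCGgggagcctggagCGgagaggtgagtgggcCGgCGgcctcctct
Sycp1 promoter, chr3:102936051-102936350, minus strand: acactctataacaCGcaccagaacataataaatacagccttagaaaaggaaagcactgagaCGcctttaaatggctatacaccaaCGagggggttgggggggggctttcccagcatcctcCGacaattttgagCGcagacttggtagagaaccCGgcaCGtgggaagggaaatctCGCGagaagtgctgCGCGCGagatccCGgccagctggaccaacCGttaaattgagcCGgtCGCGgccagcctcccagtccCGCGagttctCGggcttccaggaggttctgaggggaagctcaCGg
Cryba4 promoter, chr5:112252469-112252768, minus strand: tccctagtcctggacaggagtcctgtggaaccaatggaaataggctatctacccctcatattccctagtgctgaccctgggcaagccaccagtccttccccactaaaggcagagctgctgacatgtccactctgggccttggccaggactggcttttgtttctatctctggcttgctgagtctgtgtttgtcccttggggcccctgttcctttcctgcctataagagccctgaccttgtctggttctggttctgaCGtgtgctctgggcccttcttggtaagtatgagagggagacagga
Npvf promoter, chr6:50654390-50654689, minus strand: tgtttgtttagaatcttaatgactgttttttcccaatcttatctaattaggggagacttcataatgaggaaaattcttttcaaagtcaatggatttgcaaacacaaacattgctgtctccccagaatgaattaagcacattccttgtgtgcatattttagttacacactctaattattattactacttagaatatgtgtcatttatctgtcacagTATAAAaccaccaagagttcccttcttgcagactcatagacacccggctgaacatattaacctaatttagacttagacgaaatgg
Crybb1 promoter, chr5:112255565-112255864, plus strand: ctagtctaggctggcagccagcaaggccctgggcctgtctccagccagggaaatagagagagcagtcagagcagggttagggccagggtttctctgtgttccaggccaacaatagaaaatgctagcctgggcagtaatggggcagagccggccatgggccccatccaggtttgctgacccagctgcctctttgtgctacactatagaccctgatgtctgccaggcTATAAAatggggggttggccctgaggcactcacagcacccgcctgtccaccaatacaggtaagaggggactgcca

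Distal open regions near closed genes are shown as peaks of replicate 1 that were also present in replicate 2, on the plus strand with every CpG in capitals. Those assigned to Cct8l1, Myo1g and Kcnrg are among the highest-scoring distal peaks of any closed gene, and those of Cryba4, Gm26897 and Npvf are the best-ranked peaks of 3 closed genes rich in distal peaks.
Cct8l1 distal peak, chr5:25529636-25529785, plus strand: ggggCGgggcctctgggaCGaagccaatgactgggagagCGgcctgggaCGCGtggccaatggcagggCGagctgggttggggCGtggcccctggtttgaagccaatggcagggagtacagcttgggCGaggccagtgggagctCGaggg
Myo1g distal peak, chr11:6528756-6528905, plus strand: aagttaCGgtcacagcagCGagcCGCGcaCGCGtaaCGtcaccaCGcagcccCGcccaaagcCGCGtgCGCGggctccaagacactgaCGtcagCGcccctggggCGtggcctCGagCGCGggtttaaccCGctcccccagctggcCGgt
Kcnrg distal peak, chr14:61648776-61648925, plus strand: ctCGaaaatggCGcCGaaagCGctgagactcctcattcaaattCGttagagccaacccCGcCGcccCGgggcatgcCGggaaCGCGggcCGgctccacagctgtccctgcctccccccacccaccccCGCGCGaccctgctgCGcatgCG
Cryba4 distal peak, chr5:112153776-112153925, plus strand: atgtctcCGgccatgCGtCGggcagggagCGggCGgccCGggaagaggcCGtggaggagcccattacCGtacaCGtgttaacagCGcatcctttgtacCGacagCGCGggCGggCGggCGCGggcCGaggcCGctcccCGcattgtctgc
Gm26897 distal peak, chr5:111894076-111894225, plus strand: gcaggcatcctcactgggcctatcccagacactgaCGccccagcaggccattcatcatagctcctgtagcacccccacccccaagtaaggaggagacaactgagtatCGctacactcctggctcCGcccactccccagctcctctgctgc
Npvf distal peak, chr6:50890856-50891005, plus strand: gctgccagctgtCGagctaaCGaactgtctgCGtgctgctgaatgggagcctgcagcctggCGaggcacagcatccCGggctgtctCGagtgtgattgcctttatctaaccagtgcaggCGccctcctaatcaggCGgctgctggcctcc

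Closed promoters were CpG-poor. The ratio of observed to expected CpG in the 300 bases around the TSS had a median of 0.170 in closed genes (interquartile range 0.0882 to 0.284) and of 0.725 in other genes (0.494 to 0.889). GC content had a median of 47.7% in closed genes and 60.3% in other genes, and the number of CpGs a median of 3 in closed genes and 19 in other genes. An island-like promoter, defined by a ratio of at least 0.6 and a GC content of at least 50%, was found at 92 closed genes (2.26%) and at 9235 other genes (61.8%). The share of genes that were closed fell with CpG content, being 69.5% of 3395 genes below a ratio of 0.2, 41.7% between 0.2 and 0.4, 11.4% between 0.4 and 0.6 and 2.65% between 0.6 and 0.8. Above a ratio of 1.0, 7 of 1679 genes were closed. Genes with a ratio below 0.2 were not all closed, since 1035 of them had a region of at least 1 library. The ratio was taken at 1 TSS per gene, whereas a region at any TSS counted. The region can therefore lie at another TSS than the CpG-poor one.

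**Figure D1:**
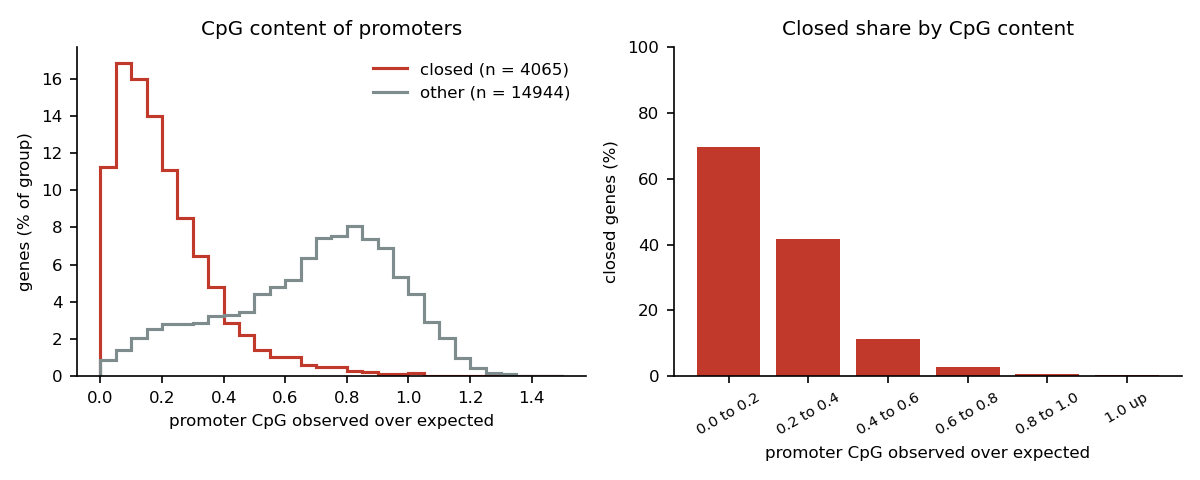
Left, the percentage of closed genes and of other genes in bins of the promoter CpG ratio (observed over expected, no unit, values above the axis placed in the last bin). Right, the percentage of genes that were closed in each range of that ratio, with 69.5% in the lowest range and 0.417% in the highest. Closed genes pile up below 0.4, and other genes have a broad peak near 0.8 with a low shoulder toward 0.2.

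Core promoter letters were counted as well. TATAAA on the strand of the gene, starting 20 to 40 bases before the TSS, was present at 246 closed genes (6.05%) and at 172 other genes (1.15%), and at 2.20% of all promoters tested. On the opposite strand of the same window these letters were present at 1.06% of closed genes and 0.294% of other genes. A GC box, searched as GGGCGG or its reverse complement CCGCCC anywhere in the 300 bases, was present at 10.6% of closed genes and 60.7% of other genes. CCAAT, searched with its reverse complement ATTGG, was present at 38.8% of closed genes and 37.2% of other genes. By list, 17 of 44 cornified envelope genes, 11 of 22 alpha-defensins, 8 of 34 secretoglobins and 6 of 28 neuropeptide genes carried the TATA letters at this position. In contrast, none of the 73 taste, trace amine and Mas-related receptor genes carried them, nor did any of the 26 natural killer receptor genes.

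Closed genes were also shorter and simpler in the annotation. Their median length was 8.68 kb, against 24.4 kb for other genes, and 11.3% of them had 1 exon, against 2.98% of other genes. A single annotated TSS was given for 59.4% of closed genes and 31.4% of other genes. The rule favours genes with few TSSs, because each further TSS is another place where a region can fall. A placeholder symbol, such as Gm followed by digits or a name ending in Rik, was carried by 1135 closed genes (27.9%) and by 4.54% of other genes.

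Part of the closed set lies in repeated sequence, where reads cannot be placed uniquely. The share of 32-mers within 1 kb of the TSSs that occur once in the genome had a median of 93.6% in closed genes and 98.7% in other genes. It was under 50% at 806 closed genes (19.8%) and at 109 other genes (0.729%). Of the 915 genes under 50%, 88.1% were closed, and of the 7740 genes at 99% or more, 12.6% were. The sources used here do not say how the authors treated reads with several matches, and the part of repeated sequence in the closed state was not tested. A total of 2387 closed genes had at least 90% unique 32-mers, and their median CpG ratio was 0.195, against 0.732 for the 13678 other genes at that level.

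**Figure D2:**
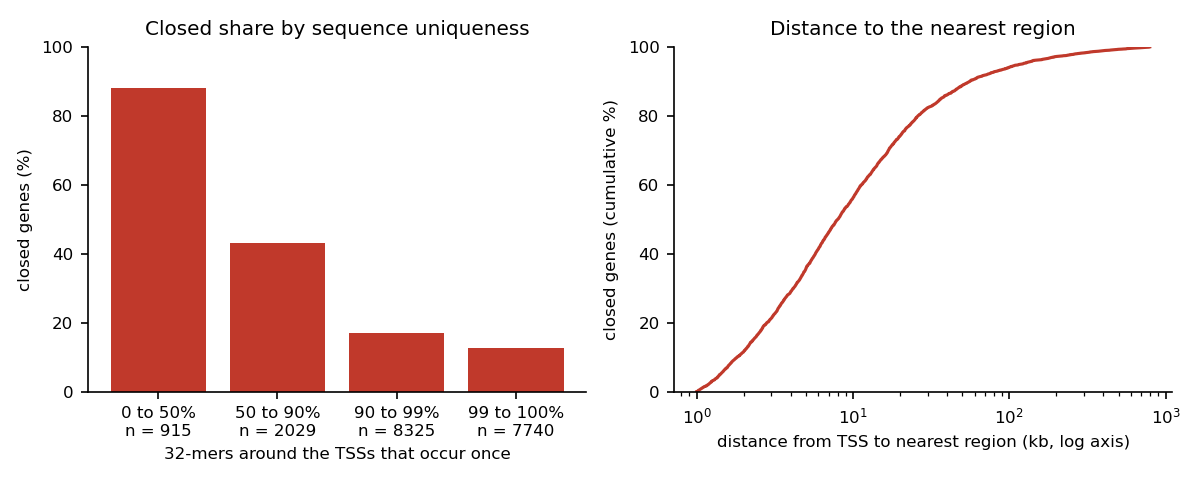
Left, the percentage of genes that were closed in 4 ranges of the share of unique 32-mers around the TSSs, with the number of genes tested under each bar. Right, the cumulative percentage of closed genes against the distance from the TSS to the nearest region of either library in kb on a log axis. The closed share is 88.1% in the least unique range and 12.6% in the most unique, and the curve starts at the 1 kb of the rule and passes its median at 7.99 kb.

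The distance from the nearest TSS of a closed gene to the nearest region of either library had a median of 7.99 kb, with 5% of genes under 1.41 kb and 5% over 120 kb. It exceeded 10 kb at 1782 closed genes (43.8%) and 100 kb at 240 (5.90%). Skint10, a member of a family that supports skin T cells, lay 784 kb from any region, and 98.3% of the 32-mers around it were unique. The longer distances of Gm2026 (790 kb) and Zfp966 (789 kb) came from sequence with no unique 32-mer. At the edge of the rule, the closed genes nearest to a region were Vsig10l at 1.00 kb, Gm9573 at 1.01 kb, and Cela1, Eppin and Thrsp at 1.02 kb each. Just outside it, the other genes farthest from a region were Gm45808, Il13 and Tcp10b at 0.999 kb, Ces1c at 0.997 kb and Gm6096 at 0.995 kb.

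Gene families were read from the letters that open the symbol, and 270 such families had at least 10 genes tested. In 6 of them every gene was closed: Lce (21 genes, late cornified envelope proteins of skin), Sprr (15, small proline-rich proteins of skin), Klra (11, natural killer cell receptors), Skint (11), Lcn (10, lipocalins that carry small lipophilic molecules) and Speer (10, expressed in testis). Next came Tas (taste receptors) with 37 of 38 closed, Scgb (secretoglobins) with 33 of 34, Prl (placental prolactin-like hormones) with 25 of 26, Defa (intestinal alpha-defensins) with 21 of 22 and Mup (major urinary proteins, which carry pheromones) with 21 of 22. Esp (exocrine gland peptides, also pheromones) followed with 14 of 15, Klk (kallikrein proteases) with 24 of 26, Ifna (alpha interferons) with 12 of 13 and Ces (carboxylesterases) with 17 of 19. Closed genes made up over 50% of 42 families and none of 75. The 10 largest families with no closed gene were Mrpl (49 genes, mitochondrial ribosome), Map (43), Zbtb (40), Cep (36, centrosome), Fbxo (36), Vps (35, vesicle sorting), Mrps (29, mitochondrial ribosome), Ap (28), Med (28, Mediator) and Polr (28, RNA polymerase subunits), with Tbc tied at 28.

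Sequence uniqueness differed widely among the closed families. Its median was 6.47% for Defa, 9.44% for Mup, 33.9% for Scgb and 42.2% for Speer, so that closed calls there rest on little unique sequence. It was 100% for Lcn, 99.3% for Tas, 96.8% for Skint, 92.4% for Sprr and 91.5% for Lce. The CpG ratio was low in all of these families, with medians between 0.0553 for Lcn and 0.188 for Prl over the 15 families named.

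Genes were then grouped in 30 lists by role, and their closed share was read against the 21.4% over all genes tested. The lists were drawn up with earlier results of these data known, and most name organs other than the neural tube. Closed shares above that level were seen in 26 lists and below it in 4. Cornified envelope genes were closed at 41 of 44 (42 in replicate 1 and 41 in replicate 2), with Lce1e and Lce1f 62 and 51.3 kb from any region. The exceptions were Lor (loricrin) with a hotspot at 0.793 kb, Tchh (trichohyalin) at 0.646 kb and Flg (filaggrin) with a peak of replicate 2 only, at 0.777 kb. Kallikreins were closed at 25 of 27, and both exceptions, Klk8 and Klk4, had regions at the TSS in both libraries. Klk8 encodes neuropsin and had a CpG ratio of 0.74, and that of Klk4 was 0.12, against a median of 0.103 in the list.

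Among genes of digestion and lactation, 24 of 28 pancreatic and gastric enzyme genes were closed, among them the amylase genes Amy2a2, Amy2a3 and Amy2a4, in which no 32-mer was unique. Pga5 and Pnliprp2 were open, with regions in both libraries. Milk protein genes were closed at 6 of 7. The caseins Csn2, Csn1s2a and Csn1s1 lay 56.6, 40.7 and 24.7 kb from any region with 96.5% to 100% unique sequence. Csn3, in the same gene cluster, had a peak of replicate 1 at 0.014 kb and of replicate 2 at the TSS. Prolactin family genes were closed at 25 of 26, and the exception Prl3b1, a placental lactogen, had a region of replicate 2 only. Secretoglobins were closed at 33 of 34 in each library, with Scgb1c1 the exception.

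Reproductive genes differed by list. Oocyte and early embryo genes were closed at 39 of 41, which include the Zscan4 and Obox clusters, with a median CpG ratio of 0.171 and 71.2% unique sequence. Placental carcinoembryonic and cathepsin genes were closed at 32 of 36. Sperm genes were closed at 33 of 72, with a median CpG ratio of 0.311 and 15 island-like promoters. Tnp1, a transition protein that replaces histones in developing sperm, was closed 16.7 kb from any region and had 44 distal peaks in replicate 1 and 36 in replicate 2, over a territory of 527 kb.

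Immune genes were mostly closed. Natural killer receptors were closed at 25 of 26 in each library, and Klra6 lay 306 kb from any region with 90.2% unique sequence. Klrg2, the exception, had regions at the TSS in both libraries and a CpG ratio of 0.46. Interferons were closed at 18 of 21 (18 in replicate 1 and 20 in replicate 2), interleukins at 26 of 39, chemokines at 22 of 37 and immune surface receptors at 73 of 100. In the last list replicate 1 alone had no region at 77 genes and replicate 2 alone at 83. Cd300a and Cd300lb, receptors of myeloid cells, were open through regions of replicate 1 only. Among chemokines, Ccl2 and Ccl25 were open at the TSS in both libraries, whereas the interleukins Il10, Il20 and Il1f6 were 16.2, 25 and 26.9 kb from any region.

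Liver, blood and muscle genes differed by list. Plasma protein genes of the liver were closed at 25 of 36, for example F13b (a coagulation factor subunit, 46 kb) and Hp (haptoglobin, 12.7 kb). All 8 globin genes were closed in both libraries, with 3.18 to 20.7 kb to the nearest region. Sarcomere genes were closed at 13 of 30, with 15 closed in each library alone. Tnnt2, the cardiac troponin T gene, and Ckm, muscle creatine kinase, lay 6.26 and 5.11 kb from any region, while Actc1, cardiac actin, and Actn2 were open at the TSS in both libraries. Conjugating and xenobiotic enzymes were closed at 64 of 99, among which the sulfotransferases Sult2a5 and Sult2a4 lay 335 and 198 kb from any region. Organic ion transporters were closed at 21 of 39.

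Sensory receptor and lens genes were mostly closed as well. Taste, trace amine and Mas-related receptors were closed at 67 of 73, with the bitter receptors Tas2r129 and Tas2r131 142 and 135 kb from any region in sequence that was 100% unique. Photoreceptor genes were closed at 16 of 22, among them Opn4 (melanopsin, 12.1 kb), Rcvrn (recoverin, 18.8 kb) and Cngb3 (a cone channel subunit, 33.1 kb). Lens crystallins were closed at 10 of 16 in both libraries together (12 in replicate 1 and 10 in replicate 2), and their distances were short, between 3.60 and 10 kb.

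Amine and peptide receptors of neurons were closed at 3 of 64 genes (4.69%), with 5 closed in replicate 1 and 6 in replicate 2. The 3 were Mc2r, the corticotropin receptor of the adrenal gland, Npy6r and Tacr2. Their list had 17 island-like promoters and a median CpG ratio of 0.47. Neuropeptide genes were closed at 5 of 28 (17.9%), with 6 closed in replicate 1 and 5 in replicate 2, which is near the share over all genes tested. Gnrh1 lay 10 kb from any region. Npvf lay 5.71 kb, Pmch (melanin-concentrating hormone) 1.71 kb and Nts (neurotensin) 1.36 kb from any region. Gnrh1, Npvf and Pmch carried the TATA letters. Neural tube regulators were closed at 0 of 19 and housekeeping genes at 0 of 13, with 1 regulator lacking a region in replicate 2.

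**Figure D3:**
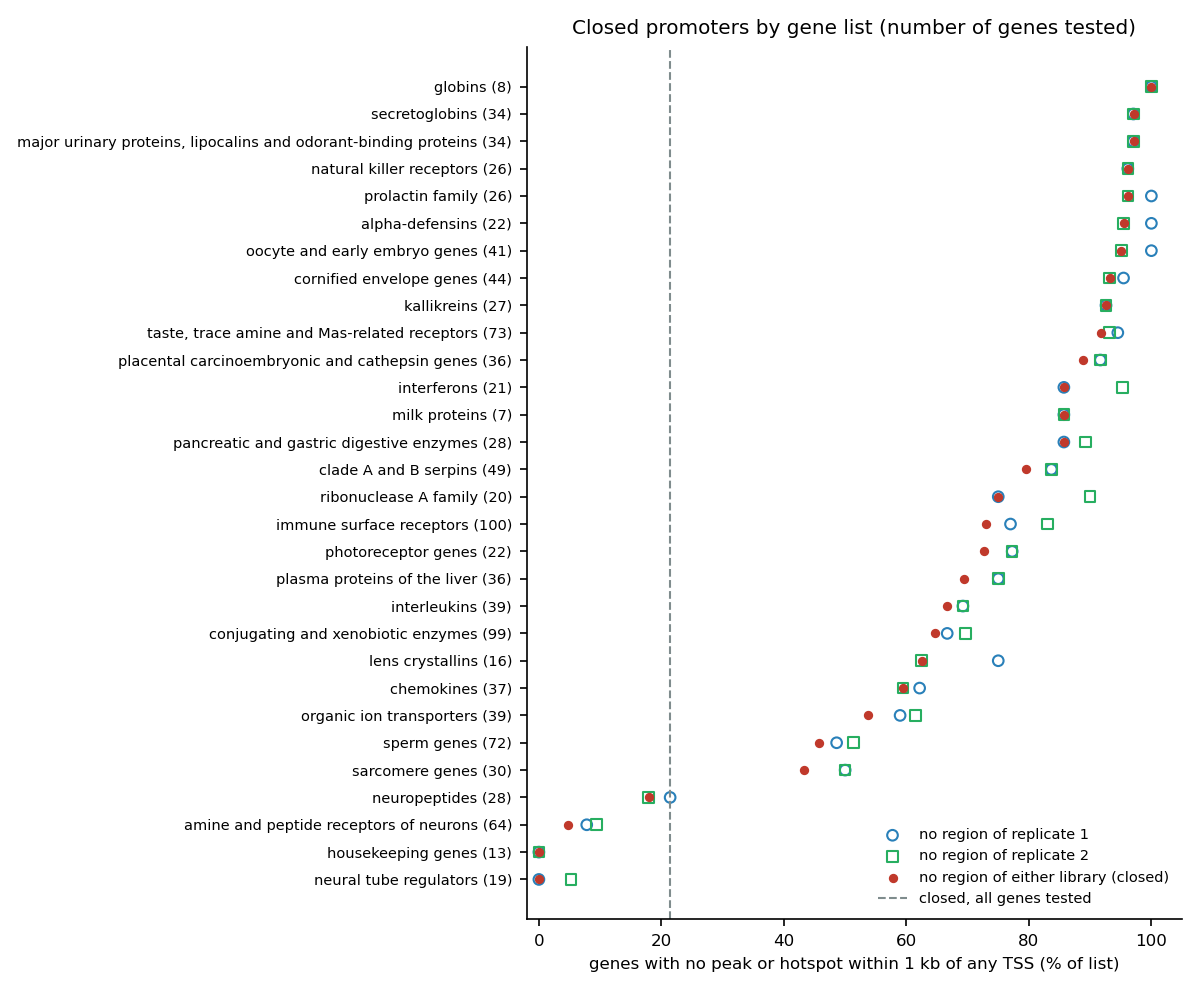
The percentage of genes with no peak or hotspot within 1 kb of any TSS in each of 30 gene lists, with the number of genes tested in parentheses. Filled points are genes closed in both libraries, open circles genes without a region of replicate 1, open squares genes without a region of replicate 2, and the dashed line is the 21.4% over all genes tested. Globins are at the top, with major urinary proteins, secretoglobins, the prolactin family and natural killer receptors next. Neuropeptides, neuronal receptors, housekeeping genes and neural tube regulators lie left of the line.

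CpG-rich closed promoters were of 2 kinds. Of the 92 island-like closed promoters, 51 had under 90% unique 32-mers, and the 10 highest CpG ratios all belonged to near-identical copies: BC107364, Srp54b, Srp54c, Gm3435, Gm3417, Gm3448, Tcte3, Gm21863, Entpd4 and Entpd4b had ratios between 0.99 and 1.2 and at most 35.6% unique sequence. The remaining 41 were largely unique, and 36 of them had a gene name. Germ cell genes led these by CpG ratio: Ddx4 (a germ cell RNA helicase, 0.97), Ankrd31 (meiotic recombination, 0.94), Fkbp6 (0.93), Majin (which attaches telomeres to the nuclear envelope in meiosis, 0.90), Sycp1 (synaptonemal complex, 0.87), Hsf5 (0.85) and Spata22 (meiotic recombination, 0.85). Tex12 (synaptonemal complex, 0.80), Mael and Asz1 (piRNA pathway, 0.78 and 0.77), Brdt (testis bromodomain protein, 0.74), Hormad1 (meiotic chromosome axis, 0.71) and Mov10l1 (piRNA pathway, 0.67) were among the rest. Genes outside the germ line were also present, such as Trpv4 (an ion channel, 0.83), Aspa (aspartoacylase of oligodendrocytes, 0.80) and S1pr5 (a lipid receptor, 0.75). The annotated start of Aspa, at 73329596 of chromosome 11 on the minus strand, lies within the Spata22 promoter printed above. The promoters of Aspa and Spata22 may therefore not be separate cases.

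These germ cell genes were noticed after their values had been seen, and a list of 66 genes of meiosis, the piRNA pathway and germ cell identity was drawn up only then, so its counts are a description. Of them 29 (43.9%) were closed in both libraries, against 21.4% of all genes tested. Replicate 1 lacked a region at 33 of the 66 and replicate 2 at 36. Their closed members had a median CpG ratio of 0.70 and their other members one of 0.62. Island-like promoters on the list were closed at 17 of 38 (44.7%), against 92 of all 9327 island-like promoters tested (0.986%). Of the 17, 15 were among the 36 named closed genes above, from which the list was drawn up. That choice largely sets the 44.7%. It also enters the 43.9% and the closed median of 0.70, since island-like promoters have a ratio of at least 0.6. None of these values can be read as a result about germ cell genes. Among the germ cell genes named above, the nearest region was 34.8 kb from Spata22, 21.4 kb from Asz1, 14.6 kb from Mael, 10.8 kb from Sycp1, 10.1 kb from Brdt and 7.68 kb from Ddx4. It was nearer to Tex12 (5.80 kb), Hsf5 (5.64 kb), Hormad1 (4.30 kb), Fkbp6 (3.47 kb), Mov10l1 (3.39 kb), Ankrd31 (1.90 kb) and Majin (1.44 kb). Dazl, Stag3, Tdrd1, Tdrkh, Smc1b, Syce2 and Meioc, which act in the same processes, had a region at the TSS in at least 1 library.

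Letters of the E-box CACGTG, its own reverse complement, occurred in 14 of the 41 unique island-like closed promoters (34.1%) and in 11.3% of the 8634 unique island-like promoters of other genes. TCCCGC, searched with its reverse complement GCGGGA, occurred in 48.8% of the closed and 46.0% of the other promoters of that kind. Over all closed promoters the order was the reverse for CACGTG, present in 4.43% of them and in 9.37% of the promoters of other genes. TCCCGC was present in 4.58% of all closed promoters and 34.3% of those of other genes. Over all promoters tested, CACGTG was present in 8.31% and TCCCGC in 28%. TCCCGC can overlap a GC box, and CACGTG contains a CpG itself.

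**Figure D4:**
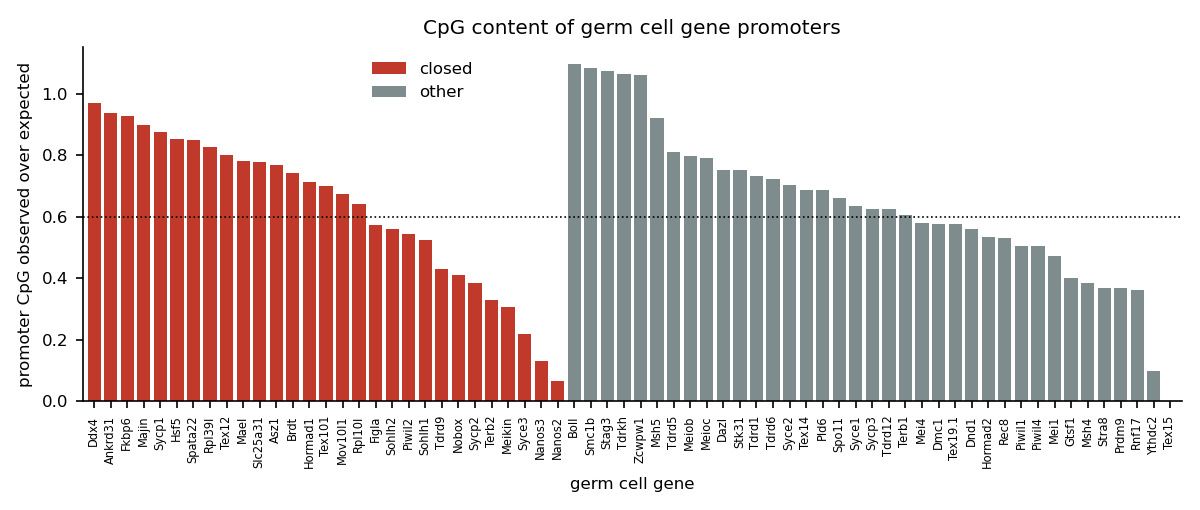
The promoter CpG ratio (observed over expected, no unit) of 66 germ cell genes, with closed genes on the left and other genes on the right, each ordered by the ratio. The dotted line is the 0.6 of the island-like definition, and 17 closed genes and 21 other genes are island-like. The list was drawn up after CpG-rich closed germ cell genes had been seen.

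Closed genes were grouped along the chromosomes. The next coding gene after a closed gene was closed in 48.2% of 3935 cases, against 13.9% of 14814 cases after another gene. In all, 141 runs of at least 5 neighbouring closed genes held 1365 closed genes (33.6%), while 1569 closed genes (38.6%) had no closed neighbour. The longest run had 59 genes at 41.1 to 43.9 Mb of chromosome 14, from Mat1a and the surfactant and mannose-binding lectin genes Sftpa1, Sftpd and Mbl1 into a block of 49 Gm genes, with a median of 8.73% unique sequence. The second was the epidermal differentiation complex on chromosome 3, with 45 genes over 0.871 Mb, of which 20 were Lce and 15 Sprr genes. It held 21 peaks in replicate 1 and 16 in replicate 2, in sequence with a median of 93.2% unique 32-mers. A run of 32 genes on chromosome 6 held 24 taste receptors and the salivary genes Prb1, Prh1 and Prp2, with 8 peaks in replicate 1 and 4 in replicate 2 over 1.57 Mb at 98.4% unique sequence. Runs of 29 secretoglobin genes on chromosome 7 and of 28 mostly unnamed genes on chromosome 5 lay in sequence with medians of 27.6% and 2.68% unique. Over the tested chromosomes the libraries held 79 peaks per Mb in replicate 1 and 61 in replicate 2, promoter peaks included. The genes of the runs were chosen for having no region within 1 kb of a TSS, so fewer peaks there are partly built in. The closed share was highest on chromosome 14 (37.1% of 851 genes) and lowest on chromosome 11 (15.5% of 1506 genes).

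A peak whose centre was over 1 kb away from all coding TSSs was called distal, and the gene owning the closest TSS received it. Closed genes received fewer distal peaks than other genes. They had 16394 in replicate 1 and 12183 in replicate 2, or means of 4.03 and 3 per gene, against 9.48 and 7 per gene for other genes. The territory of a gene is the sequenced genome for which one of its TSSs is the closest coding TSS. Per Mb of territory, closed genes had 44.6 distal peaks in replicate 1 and 33.1 in replicate 2, and other genes 72.3 in replicate 1 and 53.3 in replicate 2. Neither library had a distal peak at 1286 closed genes (31.6%) and at 14.2% of other genes, whereas at least 10 distal peaks in each library were found at 272 closed genes (6.69%) and 20.1% of other genes. All of these counts come from the libraries that chose the genes, so they describe the surroundings of closed promoters, and no test rests on them.

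The lower density of distal peaks was also seen within 1 range of sequence uniqueness and CpG content. Among genes with at least 90% unique 32-mers and a CpG ratio below 0.2, the 1238 closed genes had 49.4 distal peaks per Mb in replicate 1 and 37.8 in replicate 2, and the 874 other genes 71.1 in replicate 1 and 53.4 in replicate 2. No distal peak of either library was found at 26.6% of these closed genes and 10.1% of these other genes. These counts too come from the libraries that split the genes, and the cause of the lower density was not tested. The groups stayed unlike within this range. A single TSS was annotated for 59.6% of these closed genes and 27.2% of these other genes. Their median CpG ratios within 1 kb of the TSS were 0.157 and 0.207.

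In replicate 1, 48.2% of those near closed genes and 48.3% of those near other genes overlapped a peak of the other library, and in replicate 2 these shares were 65.9% and 66.8%. They lay in the body of the assigned gene in 20.2% of cases for closed genes and 41.6% for other genes in replicate 1, and in another coding gene in 14.1% and 8.11%. At 854 closed genes (21%) the gene body held a distal peak in both libraries, against 52.9% of other genes. Motif matches were counted on both strands. The core motif of CTCF, a factor that organises chromatin loops, occurred in 6.23% and 7.13% of peaks near closed genes in replicates 1 and 2, and in 4.68% and 5.36% of those near other genes. The E-box letters CAGCTG occurred in 15.2% of peaks near closed genes and 15.9% of those near other genes in replicate 1.

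**Figure D5:**
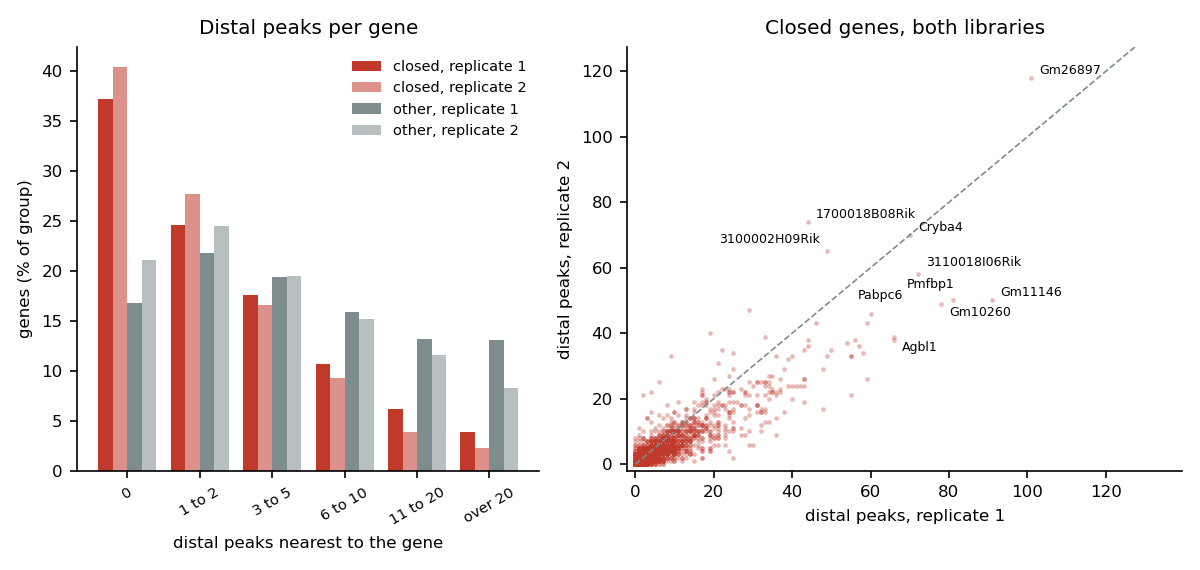
Left, the percentage of closed genes and of other genes by the number of distal peaks nearest to them in each library. Right, distal peaks in replicate 2 against replicate 1 for each closed gene, with the dashed line marking equal numbers and the 10 richest genes labelled. In replicate 1, 37.2% of closed genes and 16.7% of other genes had none, while 3.84% of closed genes and 13.1% of other genes had over 20.

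Of the 100 tested genes richest in distal peaks 1 was closed, of the 500 richest 23 and of the 1000 richest 60. Over all genes tested, 21.4% were closed. The same libraries chose the closed genes and ranked all genes here, so these counts are a description. The richest closed gene was Gm26897, an unnamed coding gene at chr5:111733924-111734574. It had 101 distal peaks in replicate 1 and 118 in replicate 2 over a territory of 417 kb. None of these peaks lay in its own body or in another coding gene, 64 of those in each library overlapped the other library, and the nearest open coding promoter, that of Mn1, was 316 kb away. Mn1 encodes a transcriptional regulator of craniofacial development. Cryba4, at chr5:112246493-112252518 on the same chromosome, had 70 distal peaks in each library over 262 kb, of which 39 in each library were shared. The promoter printed above had 1 CpG, whereas the best-ranked distal peak, 97.3 kb from the TSS, held 20 CpGs in 150 bases.

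Open genes nearest to others of the 20 richest included developmental regulators, which are picked out here after their names were seen, along with general genes such as Usp25 and Dhx38. 3110018I06Rik on chromosome 12 had 72 and 58 distal peaks in replicates 1 and 2 over 986 kb, and its nearest open promoter, 515 kb away, was that of Bcl11b, a zinc finger factor of neurons and T cells. 3100002H09Rik on chromosome 4 had 49 and 65 over 369 kb, 46.0 kb from Pou3f1, a POU factor of neural progenitors. Rtl1, an imprinted retrotransposon-derived gene of the placenta on chromosome 12, had 58 and 34 over 410 kb, 140 kb from the imprinted Dlk1. Gm11146 had 91 and 50 over 644 kb, and Pabpc6 had 60 and 46 with Qk, an RNA-binding protein of glia, as the nearest open gene at 613 kb. Assignment by distance does not say which promoter a region acts on.

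Other members of the group have known roles in other cell types. Ptprc, the CD45 antigen of leukocytes, had 59 distal peaks in replicate 1 and 43 in replicate 2 over 657 kb, of which, over both libraries, 86 lay between coding genes and 16 in its own body. Csf3r, the granulocyte growth factor receptor, had 54 and 37 over 280 kb, and Icos, a costimulatory receptor of T cells, 46 and 43 over 365 kb. Cdh5, the cadherin of endothelium, had 55 and 33 over 697 kb with the nearest region 1.41 kb from a TSS. Npvf had 57 and 36 over 418 kb, and Matn1, a cartilage matrix protein, 50 and 35 over 453 kb. Agbl1 had 66 and 39, and 64 of these, over both libraries, lay within its own body of 895 kb.

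Per length of territory the order changed. BC107364 on chromosome 3 had 55 and 33 distal peaks over 116 kb, the highest density at 38.1 per 100 kb on average over both libraries, but none of the 32-mers around its TSSs was unique. Cryba4 followed with 26.8, Gm26897 with 26.3 and 1700018B08Rik with 26 per 100 kb. The other 6 of the 10 densest genes with territories of at least 100 kb were 4930558K02Rik, 7530416G11Rik, Parvg (an actin-linked adhesion protein of blood cells), Sult6b2, Il9r (interleukin 9 receptor) and Myl10, between 18 and 19.3 per 100 kb. 7530416G11Rik on chromosome 15 had 23 distal peaks in each library over 121 kb, 74.8 kb from Wnt7b, a signalling ligand. The median over closed genes was 2.56 per 100 kb and over other genes 6.06.

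The 10 best-ranked distal peaks shared by both libraries near closed genes held between 5 CpGs in 150 bases, at Klrb1c, and 21, at Myo1g, and 4 of them lay within 1 kb of the TSS of a long noncoding RNA gene. The median distal peak near a closed gene held 2 in each library, and 5.01% in replicate 1 and 7.12% in replicate 2 held 8 or more. A GC box was present in 8 of the 10. Over all distal peaks near closed genes, it was present in 6.1% in replicate 1 and 8.04% in replicate 2. Near other genes these shares were 6.45% and 8.56%. A long noncoding TSS lay within 1 kb of 3.79% and 4.15% of distal peaks near closed genes, and of 3.66% and 4.07% near other genes. The 10 were picked by score, and equally high-scoring peaks near other genes were not examined. The peak assigned to Myo1g, a leukocyte myosin, lay 7872 bp from its TSS and 70 bp from the TSS of the long noncoding RNA gene Snhg15, with scores of 141 in replicate 1 and 132 in replicate 2. That of Kcnrg, a potassium channel regulator, lay 41368 bp from its TSS and 28 bp from the noncoding Dleu2, with scores of 137 and 127. Those of Gm42906 and Cct8l1 lay 65 and 303 bp from noncoding TSSs. The authors' scores run from 1 to 150 and rank peaks within a library only. Kif14, a mitotic kinesin, had its peak 1625 bp from the annotated TSS with scores of 140 and 127. Adding the mRNA starts of RefSeq, an alternative chosen after the data had been seen, opened 226 closed genes, among them Kif14, Pmfbp1, Rtl1, Icos, Il9r, 4930558K02Rik, 7530416G11Rik and Tdrd9. The peaks of Gpr84, 4930444G20Rik, Klrb1c, Xirp2 and Gm14085 lay between 5162 and 119628 bp from the TSS, with the nearest noncoding TSS at least 4385 bp away.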

How the data were processed

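DNase-seq of 2 biological replicates of neural tube was analysed. The authors deposited, for each library, peaks of 150 bp with a whole-number score from 1 to 150 and hotspots with a −log10 q-value from 1.30 to 100, on mm10 per the labels. The sources used here do not give the meaning of the score, the aligner or the caller. Replicates were not pooled. Sequencing depth is unknown, since no counts are given, so no interval was computed.

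Repeated peak rows were removed, 45 in replicate 1 and 22 in replicate 2, which left 199653 and 154324 peaks, with 162801 and 132619 hotspots. TSSs were those of protein-coding transcripts of GENCODE vM21, 48743 in the genes tested. Sequence came from GRCm38.p6, the same assembly as mm10, and RefSeq starts from its annotation. Promoter features use 1 TSS per gene, that of a transcript annotated as principal where there is one, and the share of unique 32-mers uses all of its TSSs. Python 3.11.15 with numpy 2.4.6, pandas 2.3.3 and numba 0.67.0 was used, and the assignment of regions to TSSs and the 32-mer counts were tested on simulated data.

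The members, gene lists and rules were chosen with earlier results of these data known. Text names the 15 families with the highest closed share and the 10 largest with the lowest, up to 4 closed and 3 open genes per list, the 20 closed genes with most distal peaks, the 10 densest, the 10 best-ranked shared distal peaks, the 10 highest CpG ratios and the 5 longest runs. Germ cell genes and others picked by role were named after their values were seen. No test was run, and values are read beside those over the other genes. Alternatives changed the window, regions, thresholds, TSSs, genes and libraries.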

Additional observations from a re-analysis of the deposited data

How the results depend on the processing

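Counts of closed genes stayed within 1.5 times of 4065 under every alternative run except the limit to genes with at least 90% unique 32-mers, which left 2387 by its own construction. Leaving out either library gave a median CpG ratio of 0.1726 to 0.1754 and a share of closed genes with no distal peak of 36.61 to 39.29%. The median CpG ratio of closed genes was 0.1724 with a window of 500 bp, 0.1661 with 2 kb, 0.1817 with the 50% of peaks with the higher scores, 0.1724 with equal numbers of peaks, 0.1671 with the TSSs of all transcripts, 0.1856 with the 5′-most TSS, 0.1455 with the left-out prefixes kept, 0.1818 without placeholder symbols, 0.1948 with unique genes and 0.1739 in a promoter window of 1 kb to either side. The median of 1 distal peak in replicate 1 became 2 with the 50% of peaks with the higher scores, the 5′-most TSS, no placeholder symbols or unique genes. In replicate 2 it became 0 with the left-out prefixes kept and 2 with unique genes. The share with no distal peak, 31.64% as reported, was 35% at 2 kb, 29.19% with the higher-scoring 50%, 28.93% with the 5′-most TSS, 41.33% with the left-out prefixes kept, 25.53% without placeholder symbols, 21.37% with unique genes and 39.63% with distal meaning over 5 kb. Distal meaning over 5 kb can only raise this share, by its own construction. The cause of the other shifts was not tested. RefSeq starts, added after seeing the data, left 3839 closed genes. Of 55 families and lists, 41 had a closed share above that over all genes tested, and 41 or 42 did under each alternative run for them. The families among them were picked for the highest or the lowest closed share, and the lists were drawn up with earlier results known. The count of 41 is therefore set largely by that choice. Its stability shows only that few of the picked families and lists changed side. With a window of 2 kb, 20 of the 26 closed genes named for their distal peaks were still closed. No paired analysis was possible because there is 1 group. Depth is not known, so a weak promoter region can be missed.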

Other observations

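The 5 symbol prefixes kept out of the set were mostly closed too, at 1560 of 1713 genes (91.1%). Closed were 315 of 329 Vmn genes (vomeronasal receptors), 1049 of 1127 Olfr genes (olfactory receptors), 37 of 42 Defb genes (beta-defensins), 88 of 113 Krt genes (keratins and keratin-associated proteins) and 71 of 102 Cyp genes (cytochrome P450 enzymes). In replicate 1 alone 1080 Olfr genes had no region and in replicate 2 alone 1077. Among large families of the set with mixed roles, 77 of 358 Slc transporter genes (21.5%), 41 of 385 Zfp zinc finger genes (10.6%) and 29 of 235 Tmem genes (12.3%) were closed. The Slc share was near the 21.4% over all genes tested, and the Zfp and Tmem shares were below it.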
